A study of Homo sapiens with 6 samples.

Results

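The S100 proteins are small calcium sensors, and the annexins are calcium-dependent membrane-binding proteins that several of them hold on to. A total of 10 genes of these families were examined, 7 S100 genes (S100A4, S100A6, S100A10, S100A11, S100A13, S100A16 and S100B) and 3 annexin genes (ANXA1, ANXA2 and ANXA6). They were chosen by gene symbol, all 10 had a row, and the table held 12558 gene rows in all. The cells were IGR37, a human melanoma cell line, carrying in every library a CTNNB1 transgene that doxycycline switches on and that encodes beta-catenin with an SV40 nuclear localisation signal at its N-terminus. A piggyBac transposon had put it in and G418 had selected the cells, so doxycycline-free controls carry transgene and selection history too. The labels describe 3 libraries after 24 h of doxycycline at 20 ng/ml and 3 without doxycycline, prepared with a kit that reads the 3' ends of polyadenylated RNA. Neither the clonality of the line nor separate cultures within a group are stated, so the p-values measure a spread between samples that may be technical.

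The deposited file is the authors' edgeR comparison, with 1 fold change and 1 F test for each gene and none of the libraries' own values. Its title carries the names of the line and the transgene, but neither its header nor the labels name the groups compared or state which stands on top of the fold change. That it sets doxycycline against no doxycycline is read from the series' design and was not tested. "Higher" and "lower" therefore mean a positive or negative log2 fold change as deposited, and the "positive side" is the group on top. CTNNB1 stood at 1.96 on the log2 scale by the authors' deposited table (edgeR FDR 1.24e-08), which is the sign that doxycycline over no doxycycline would give. Whether 3'-end reads of the transgene fall in that row is not given in the sources used here, so the row is a weak check of direction. The CTNNB1 row cannot show which groups were compared. The melanocytic identity of IGR37 was seen on the positive side only, with 7 melanocytic markers summing to about 7411 CPM there and 114 CPM on the negative side, where the summed fibroblast and epithelial markers were more abundant than on the positive side. A gene was called at an edgeR FDR under 0.05. Standard errors (SE) and 95% intervals were approximated from the deposited log2 fold change and F, and replicate error enters the values only through that F. Of the gene rows, 50.9% were called, 24.5% higher and 26.4% lower. The 59 spike-in RNAs, synthetic transcripts added to the samples, had a median log2 fold change of 0.57 by the authors' deposited table, against -0.01 for all genes. Centring on the spike-ins shifts every gene down by 0.57 and turns the split of called genes from 3080 higher and 3318 lower into 1423 higher and 6564 lower.

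S100 proteins work as dimers whose calcium-bound form exposes a groove for target proteins, and annexins hold a calcium-binding core with a variable N-terminal tail. S100A10 is the exception among S100 proteins, being locked in the active shape without calcium; a pair of S100A10 and a pair of ANXA2 molecules form a stable complex at the plasma membrane. S100A11 binds the tail of ANXA1 in the same manner, and S100A6 can bind ANXA2, ANXA6 and ANXA11. S100B is a long-used tissue and serum marker of melanoma and of melanocytic and Schwann cells.

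Of the 10 members, 7 were lower, 2 higher and 1 was not called. Read against the 26.4% of all gene rows that were lower, the members' share of lower genes was above the background; centred on the spike-ins, 9 of 10 were called and 8 lower, beside 63.6% called and 52.3% lower over all gene rows. Among the 3778 gene rows at least as abundant as the lowest member, 56.6% were called, 29.6% lower and 27.1% higher. The members' median log2 fold change was -1.36, beside -0.01 for all genes, or -1.93 relative to the spike-ins. The 7 lower members spanned folds of 1.94 to 22.3, with edgeR FDRs of 7.34e-05 or smaller by the authors' deposited table.

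**Figure D1:**
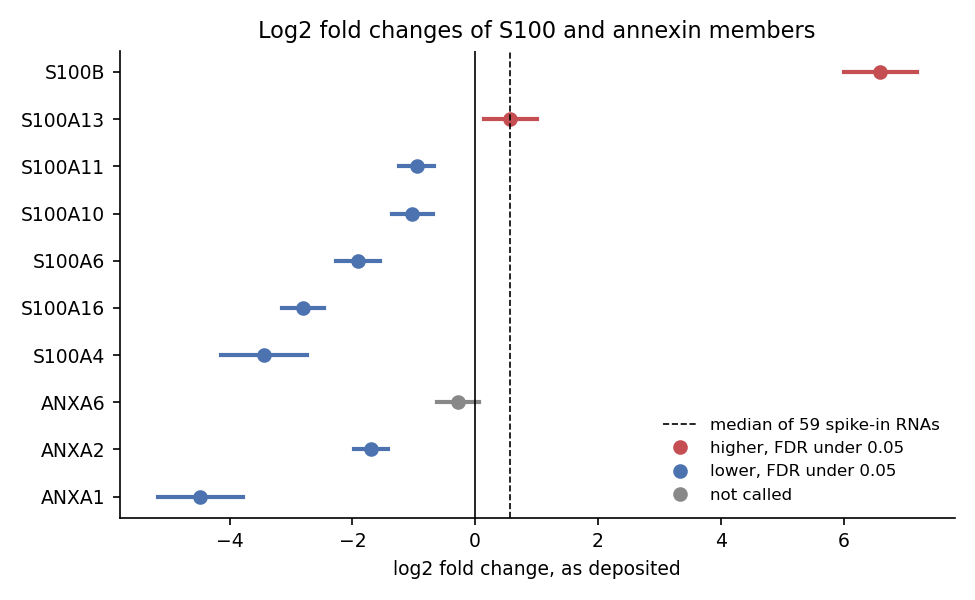
Log2 fold change of each member as deposited (points) with an approximate 95% interval (bars), S100 genes above annexins, and the spike-in median as a dashed line. S100B stands at 6.60, while the 7 members called lower run from S100A11 at -0.95 to ANXA1 at -4.48. ANXA6, at -0.28, also lies below 0 but was not called.

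The 250 bases before the start sites of 5 genes are shown because they place genes that moved far apart side by side: ANXA1, ANXA2 and S100A4 were lower, S100A1 was higher, and ANXA6 was not called. The sequences are from RefSeq on GRCh38.p14 and read 5′ to 3′ toward the start site, which follows the last base. Capitals mark TATAAA (the TATA box), TGANTCA (the site of AP-1, a stress- and growth-driven factor), CACGTG or CATGTG (E-boxes of the kind MITF reads) and TCAAAG (the core read by TCF/LEF, the DNA-binding partners of beta-catenin), each searched on both strands.
ANXA1 (chr9:73151615-73151864, plus strand): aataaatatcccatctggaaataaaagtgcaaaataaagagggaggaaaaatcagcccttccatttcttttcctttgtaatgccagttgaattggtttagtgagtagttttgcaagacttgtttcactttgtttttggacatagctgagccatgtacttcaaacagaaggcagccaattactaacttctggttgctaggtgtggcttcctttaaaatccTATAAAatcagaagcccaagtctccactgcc
ANXA2 (chr15:60397987-60398236, minus strand): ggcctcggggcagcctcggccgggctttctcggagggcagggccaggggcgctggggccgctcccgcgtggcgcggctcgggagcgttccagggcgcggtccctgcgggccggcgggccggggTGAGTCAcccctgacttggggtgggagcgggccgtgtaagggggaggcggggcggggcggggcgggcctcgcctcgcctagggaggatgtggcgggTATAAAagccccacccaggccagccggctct
S100A4 (chr1:153545807-153546056, minus strand): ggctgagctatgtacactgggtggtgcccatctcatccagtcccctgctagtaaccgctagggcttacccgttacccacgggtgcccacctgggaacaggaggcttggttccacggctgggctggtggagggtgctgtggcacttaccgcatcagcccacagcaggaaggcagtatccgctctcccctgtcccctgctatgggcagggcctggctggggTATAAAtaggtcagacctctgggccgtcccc
S100A1 (chr1:153628184-153628433, plus strand): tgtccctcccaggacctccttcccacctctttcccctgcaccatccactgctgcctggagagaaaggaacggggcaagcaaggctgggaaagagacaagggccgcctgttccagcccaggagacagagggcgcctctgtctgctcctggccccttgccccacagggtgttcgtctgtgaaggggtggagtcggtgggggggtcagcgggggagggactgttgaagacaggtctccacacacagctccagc
ANXA6 (chr5:151157780-151158029, minus strand): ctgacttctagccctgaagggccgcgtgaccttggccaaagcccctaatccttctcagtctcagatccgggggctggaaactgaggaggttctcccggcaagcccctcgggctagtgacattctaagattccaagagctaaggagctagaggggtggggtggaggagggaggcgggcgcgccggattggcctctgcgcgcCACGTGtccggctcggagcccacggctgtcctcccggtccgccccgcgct

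The RefSeq table held 13 start sites for 9 of the 10 members. TATAAA stood 31 bases before the start in ANXA1, ANXA2 and S100A4, and 29 bases before 1 of the 3 starts of S100A13. On the sense strand, 25 to 35 bases before the start, these letters occurred in 2.17% of 35116 promoters and anywhere on either strand in 10.7%. ANXA2 held TGAGTCA 127 bases before its start, and TGANTCA in any form was found in 6.57% of promoters. ANXA6 held CACGTG 50 bases before the start shown and CATGTG 127 bases before its other start; CATGTG also stood before 1 start each of S100A13 and S100A16. Those 2 E-box forms occurred in 6.34% and 9.42% of promoters. TCAAAG, found in 11.2% of promoters, occurred before 1 start of S100A13 alone among the members. These matches describe letters in the windows searched and not binding.

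S100B, a calcium sensor of melanocytic and glial cells, was the most changed member. It was 97.0-fold higher by the authors' deposited table (log2 6.60, approximate SE 0.28, edgeR FDR 2.22e-10) and ranked 70th from the top of 12558 gene rows by log2 fold change. Its average level was 128 CPM, a unit in which the reads of a gene are scaled to the size of its library. With 3 libraries a side taken at equal weight, the average and the fold imply about 254 CPM on the positive side and 2.62 CPM on the negative side. S100B was thus a well-detected transcript on the positive side and a scarce one on the negative side, with an approximate 95% interval of 64.3 to 146 for the fold. The gene lies on the minus strand of chromosome 21 (chr21:46598604-46605208), apart from the other S100 members.

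S100A4, which binds non-muscle myosin and is linked to cell motility and metastasis, was 10.9-fold lower by the authors' deposited table (log2 -3.44, approximate SE 0.33, edgeR FDR 7.50e-07). Its level came to about 11.6 CPM on the positive side and 127 CPM on the negative side. S100A16, a widely expressed S100 protein, was 6.996-fold lower by the authors' deposited table (log2 -2.81, approximate SE 0.16, edgeR FDR 2.87e-09), at about 13.8 CPM on the positive side and 96.6 CPM on the negative side. The approximate intervals of S100A4 (-4.14 to -2.74) and S100A16 (-3.14 to -2.47) overlapped. Both genes were scarce on the positive side, and the order of their folds cannot be read from these values.

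S100A6, which binds calcyclin-binding protein and annexins, was the most abundant member in reads, averaging 3173 CPM. It was 3.76-fold lower by the authors' deposited table (log2 -1.91, approximate SE 0.16, edgeR FDR 2.74e-07), about 1334 CPM on the positive side and 5012 CPM on the negative side. This single gene made up 63.5% of the summed approximate CPM of the 7 S100 members on the positive side and 86.7% on the negative side. S100B contributed 12.1% on the positive side and 0.0453% on the negative side. Summed over the 7, the level was about 2101 CPM on the positive side and 5782 CPM on the negative side. The 3'-end protocol counts about 1 tag per transcript whatever its length, which is why CPM is summed across genes here.

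The annexin partners S100A10 and S100A11 moved least among the lower members. S100A10 was 2.03-fold lower by the authors' deposited table (log2 -1.02, approximate SE 0.15, edgeR FDR 7.34e-05), about 92.7 CPM on the positive side and 188 CPM on the negative side. S100A11 was 1.94-fold lower by the authors' deposited table (log2 -0.95, approximate SE 0.13, edgeR FDR 3.82e-05), about 71.3 CPM on the positive side and 138 CPM on the negative side. Their approximate intervals, -1.35 to -0.69 and -1.24 to -0.67, covered nearly the same range.

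S100A13, which takes part in the release of FGF1 and IL1A without a signal peptide, was 1.49-fold higher by the authors' deposited table (log2 0.57, approximate SE 0.20, edgeR FDR 0.0297). Its level was about 324 CPM on the positive side and 218 CPM on the negative side. This rise equalled the spike-in median: centred on the spike-ins the log2 value was 0.002169 with an FDR of 0.993, and the call was also lost with 4 denominator degrees of freedom (FDR 0.104).

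**Figure D2:**
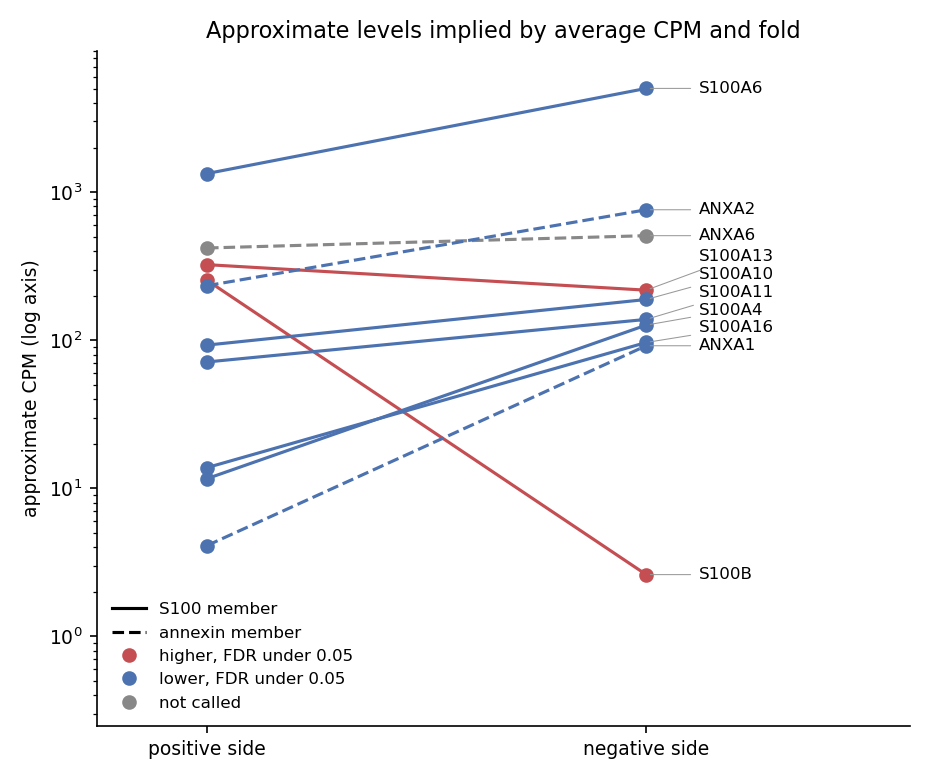
Approximate level of each member in CPM on a log axis, on the positive side (left) and the negative side (right) of the comparison, from the deposited average CPM and fold; solid lines are S100 genes, dashed lines annexins. S100B stands at 254 CPM on the positive side and 2.62 CPM on the negative side, while S100A4, S100A16 and ANXA1 run the other way.

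ANXA1, a membrane and anti-inflammatory protein and substrate of the EGF receptor kinase, had the largest fall of the 10. It was 22.3-fold lower by the authors' deposited table (log2 -4.48, approximate SE 0.32, edgeR FDR 4.24e-08), about 4.11 CPM on the positive side and 91.8 CPM on the negative side. ANXA2, which with S100A10 serves as a platform for plasminogen activation and membrane repair, was 3.25-fold lower by the authors' deposited table (log2 -1.70, approximate SE 0.13, edgeR FDR 7.04e-08), about 233 CPM on the positive side and 760 CPM on the negative side. ANXA6, a double-length annexin that acts on endosomes and cholesterol, had a log2 fold change of -0.28 and was not called (approximate SE 0.16, edgeR FDR 0.17 by the authors' deposited table), about 419 CPM on the positive side and 508 CPM on the negative side. Its approximate interval ran from -0.62 to 0.07, and centred on the spike-ins ANXA6 was called lower (log2 -0.85, FDR 3.96e-04).

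For a pair of complexes, the partners' approximate intervals did not overlap. The approximate interval of ANXA2 (-1.98 to -1.43) lay below that of its partner S100A10 (-1.35 to -0.69). ANXA1, at -5.17 to -3.79, lay far below its partner S100A11, at -1.24 to -0.67. S100A6 (-2.26 to -1.56) and ANXA2, which it can also bind, overlapped. Both genes of a pair come from the same libraries and their covariance is not in the table, so the difference within a pair was not tested. ANXA2 has processed copies elsewhere in the genome, and the row of 1 of them, ANXA2P3, was 2.24-fold lower by the authors' deposited table (edgeR FDR 0.0038, chosen after its value was seen); reads of these near-identical copies may be split between the rows.

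**Figure D3:**
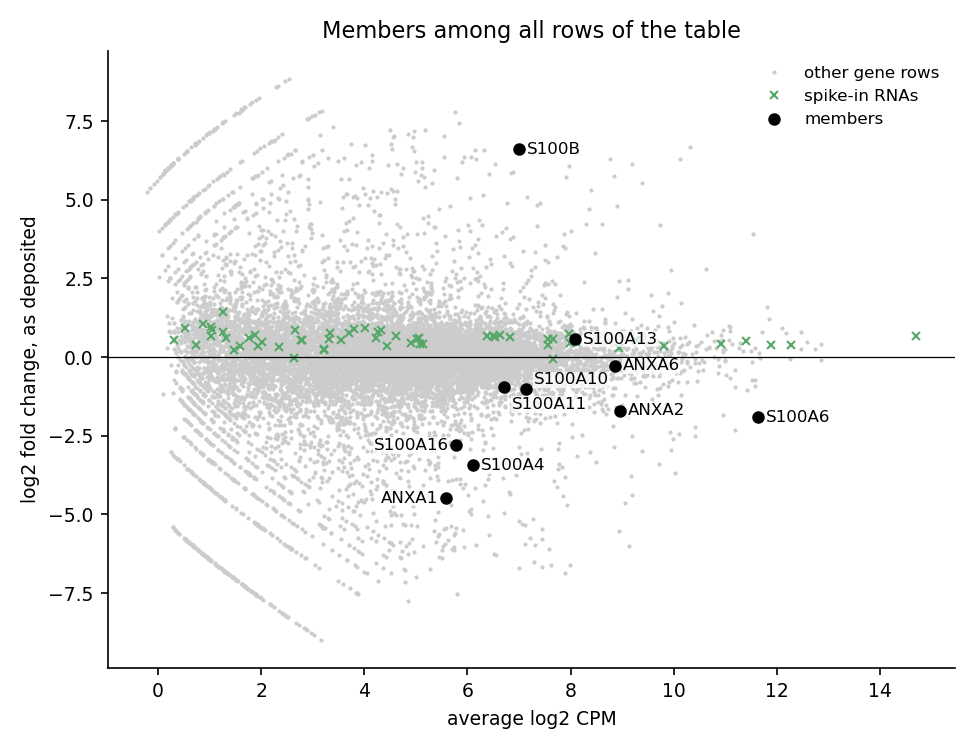
Log2 fold change against average log2 CPM for all rows, with the members in black and the spike-ins as crosses. All 10 members lie at an average of at least 47.9 CPM; S100B is near the top of its level range, ANXA1 and S100A4 are well below the bulk, and S100A13 sits within the band of spike-ins.

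The rest of both families had 1 gene far up and most of the others down. Of 23 further S100 and annexin genes, 8 had a row: 1 was higher, 5 were lower and 2 were not called, with a median log2 fold change of -1.07. Over all gene rows, 50.9% were called, 26.4% lower and 24.5% higher. S100A1, a calcium sensor best known from heart muscle, was 129-fold higher by the authors' deposited table (log2 7.01, edgeR FDR 2.34e-09), about 46.5 CPM on the positive side and 0.361 CPM on the negative side. S100A2, known from keratinocytes, was 16.8-fold and S100A3, known from hair follicle cells, 39.9-fold lower by the authors' deposited table (edgeR FDRs 3.91e-07 and 5.90e-06). S100A3 averaged only 8.73 CPM, and its fold depends on a level close to 0 on the positive side. Over all measured S100 genes, 3 of 10 were higher and 7 lower, with none uncalled.

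No annexin was called higher. ANXA3 was 42.9-fold, ANXA7 2.42-fold and the S100A6 partner ANXA11 1.82-fold lower by the authors' deposited table (edgeR FDRs 9.52e-07, 1.85e-05 and 8.10e-05). ANXA3 averaged 9.26 CPM and is likewise close to undetected on the positive side. ANXA4 had a log2 fold change of -0.39 and ANXA5, the phosphatidylserine binder, of -0.08, and neither was called (edgeR FDRs 0.184 and 0.774 by the authors' deposited table). Together 5 of 8 measured annexins were lower and 3 not called, beside 26.4% lower and 24.5% higher over all gene rows. Centred on the spike-ins, ANXA4 (-0.96, FDR 0.00258), ANXA5 (-0.65, FDR 0.0159) and ANXA6 would all be called lower. With that centring, 52.3% of all gene rows were lower.

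Of the members, 6 lie in the S100A gene cluster of chromosome 1, in a pair of blocks. S100A10 (chr1:151982915-151993859) and S100A11 (chr1:152032506-152047907) stand 1.49 Mb before the block that begins with S100A6 (chr1:153534599-153536244) and holds S100A4 (chr1:153543613-153550136), S100A16 (chr1:153606886-153613145) and S100A13 (chr1:153618787-153631360), in GENCODE 44 on hg38. From S100A6 to S100A16, a stretch of 78.5 kb, 5 genes had a row and all 5 were lower, with log2 fold changes of -5.32 to -1.91. Over all gene rows 26.4% were lower, or 52.3% centred on the spike-ins. The sign changed across the 5.64 kb between S100A16 and S100A13. S100A13 and S100A1, which lies on the opposite strand and overlaps it, were both higher as deposited, S100A13 no longer when centred on the spike-ins.

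**Figure D4:**
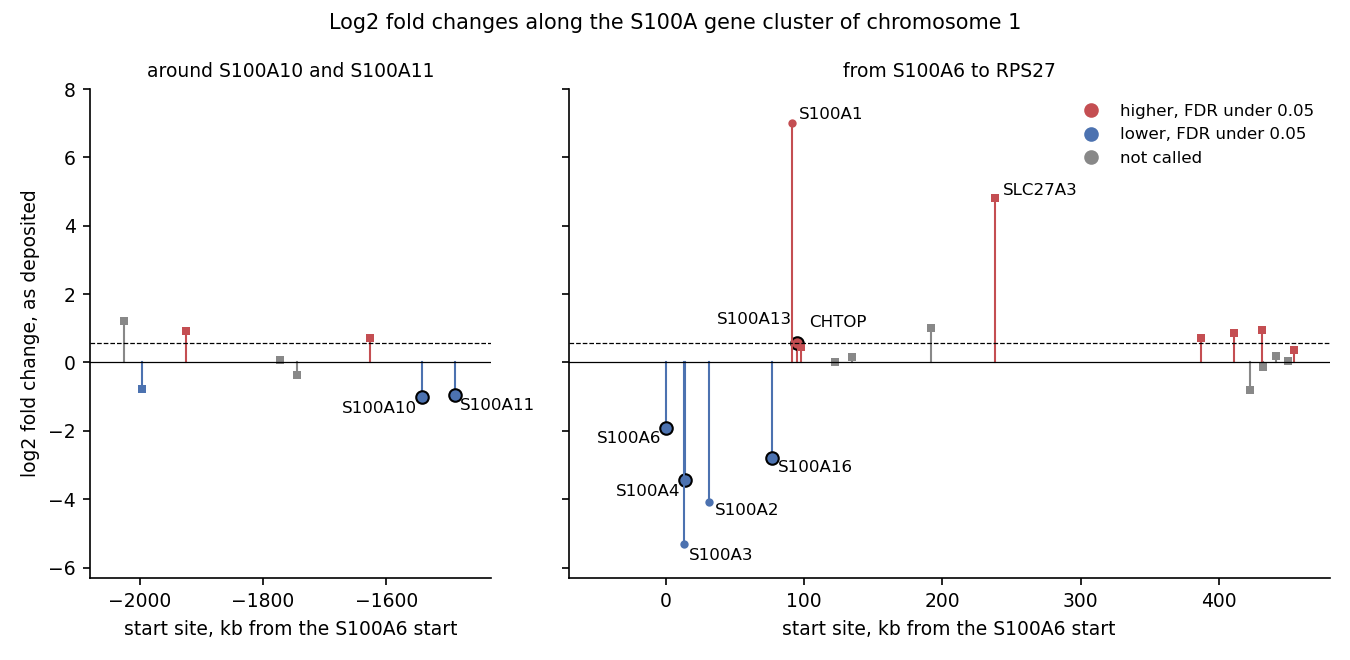
Log2 fold change of each measured gene against the distance of its start site from that of S100A6, in kb; circles are S100 genes, outlined where they are members, squares other genes, and the dashed line is the spike-in median. The 5 genes from S100A6 to S100A16 all point down, S100A1 points up at 7.01, and the next strong value is SLC27A3 at 4.80.

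Within 0.5 Mb of the outermost members, 22 further genes had a row, 9 higher, 3 lower and 10 not called, with a median log2 fold change of 0.28 (-0.29 relative to the spike-ins). Those 12 called of 22 stand beside 50.9% of all gene rows called, 24.5% higher and 26.4% lower, so the share called was near the background. Leaving out S100A1, S100A2 and S100A3, 8 of 19 were higher and 1 lower. SLC27A3, an acyl-CoA synthetase of the fatty acid transporter family, had a log2 fold change of 4.80 by the authors' deposited table (edgeR FDR 2.22e-10). DENND4B (0.87) and SNX27 (0.91) were modestly higher on the log2 scale by the authors' deposited table (edgeR FDRs 5.21e-04 and 0.00471). CHTOP, the next gene beyond S100A1, had a log2 fold change of 0.44 by the authors' deposited table (edgeR FDR 0.0129, named for its position), below the spike-in median. Centred on the spike-ins the 22 neighbours split into 2 higher and 10 lower, beside 11.3% higher and 52.3% lower over all gene rows, and with 4 denominator degrees of freedom 3 were higher and 2 lower.

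A pair of overlaps limits what single rows can show. The annotated spans of S100A4 and S100A3 share 1930 bases on the same strand, although their 3' ends lie 3716 bases apart. S100A13 and S100A1 share 3435 bases on opposite strands, with 3' ends 13252 bases apart. How reads in shared stretches were counted, and whether strand was used, is not given in the sources used here.

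Genes of proteins that S100s and annexins bind were also examined. Of 43 listed partners and receptors, 34 had a row: 19 were lower, 7 higher and 8 not called, with a median log2 fold change of -0.66. Over all gene rows 26.4% were lower, 24.5% higher and the median was -0.01. Scaffold and repair partners were lower in 3 of 3 measured. The giant scaffold AHNAK, which binds the S100A10 and ANXA2 complex, was 2.27-fold, its relative AHNAK2 13.8-fold and the membrane-repair protein MYOF 11.6-fold lower by the authors' deposited table (edgeR FDRs 1.38e-05, 2.46e-07 and 1.06e-07).

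Genes of plasminogen activation, the surface process that S100A10 and ANXA2 assist, stood on both sides. The urokinase receptor PLAUR was 5.55-fold lower by the authors' deposited table (edgeR FDR 4.12e-07). PLAT, the tissue-type activator, was 2.30-fold higher by the authors' deposited table (edgeR FDR 3.10e-04, named after its value was seen). The transglutaminase TGM2, which crosslinks annexins and S100 proteins, was 6.97-fold lower by the authors' deposited table (edgeR FDR 1.22e-07).

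The myosin heavy chains that S100A4 can bind went opposite ways. MYH9, the non-muscle myosin IIA chain that S100A4 disassembles, was 2.80-fold lower and MYH10, the IIB chain, 12.4-fold higher by the authors' deposited table (edgeR FDRs 2.74e-07 and 2.19e-08). MYH9 stood at about 184 CPM on the positive side and 516 CPM on the negative side, and MYH10 at about 78.1 CPM on the positive side and 6.30 CPM on the negative side. SYT1, a partner of S100A13 in FGF1 release, was 36.9-fold lower by the authors' deposited table (edgeR FDR 5.64e-07), opposite in sign to S100A13 as deposited. Centred on the spike-ins, S100A13 lay at 0.002169 on the log2 scale and was not called.

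Of the listed S100A6 partners that are not annexins, 0 of 3 were called in either direction. Over all gene rows 50.9% were called, 26.4% lower. Among the annexins that S100A6 can bind, ANXA2 and ANXA11 were lower and ANXA6 was not called. CACYBP, the calcyclin-binding protein, lay at 0.15 on the log2 scale, approximate interval -0.14 to 0.44 (edgeR FDR 0.362 by the authors' deposited table), while S100A6 itself was at -1.91. All 3 calpain genes were lower, among them the shared small subunit CAPNS1 at 1.84-fold lower by the authors' deposited table (edgeR FDR 0.00116). IQGAP1, which binds S100B, was 1.38-fold higher by the authors' deposited table (edgeR FDR 0.0105; log2 0.46, below the spike-in median). The protease CTSB, a ligand of S100A10 and ANXA2 at the cell surface, had a log2 fold change of 0.02 (edgeR FDR 0.92 by the authors' deposited table).

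**Figure D5:**
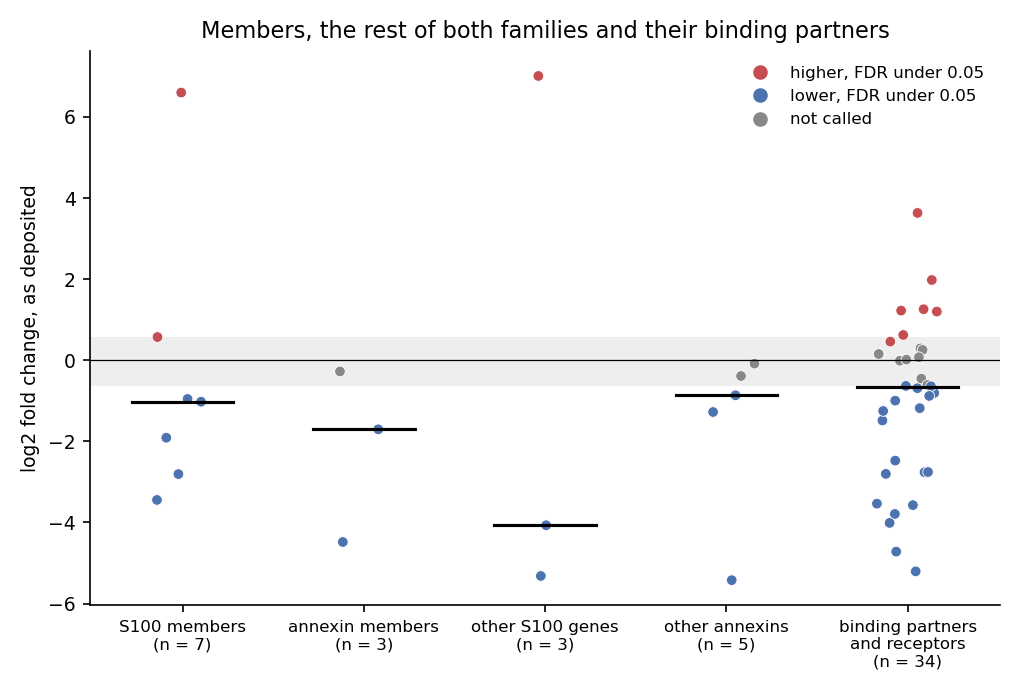
Log2 fold changes by list, 1 point a gene, with medians as bars and the central 50% of all gene rows in grey. S100 genes hold 1 strong positive value among members (S100B) and 1 outside them (S100A1), and no annexin is called higher.

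Cell-type markers also differed between the sides. All 7 melanocytic markers were higher (median log2 fold change 6.29). Of 9 fibroblast markers 6 had a row, 5 lower and LUM higher. The 6 summed to 16.6 CPM on the positive side and 412 CPM on the negative side. Among 8 epithelial markers 5 had a row, all lower. The 5 summed to 6.07 CPM on the positive side and 381 CPM on the negative side. KRT18 alone stood at about 346 CPM on the negative side, and the other measured epithelial markers at 3.80 to 16.6 CPM there. Blood and endothelial markers were scarce, 3 of 7 with a row, 1 higher and 2 lower, at 12.98 CPM on the positive side and 16.0 CPM on the negative side. DCN, PDGFRB, THY1, KRT5, KRT14, EPCAM, PTPRC, CD14, LYZ and VWF had no row. The melanoma label is thus met by the melanocytic markers on the positive side and not on the negative side, where SOX10 stood at about 1.83 CPM and MLANA at about 7.37 CPM. The part of such cell states or mixtures in the S100 and annexin values was not tested, and in bulk RNA fewer cells of a type and less RNA per cell cannot be told apart.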

How the data were processed

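Per the labels' protocols, RNA of 6 IGR37 libraries (3 with and 3 without doxycycline) was prepared from 500 ng with a 3'-end kit. Per the submitters' processing notes, STAR and edgeR were used on hg38; no source used here gives versions, counting tool, annotation or filter. The deposited columns, per the file headers, are a log2 fold change, the fold as a ratio, average log2 CPM, an F score, a p-value and its FDR. The deposited FDR matched Benjamini-Hochberg adjustment over the 12617 rows (largest relative difference 9.01e-13). The planned count model could not be fitted without counts, so the authors' edgeR test was used, as the design foresaw.

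The approximate SE is the size of the log2 fold change over the square root of F; 95% intervals use the 14.03 denominator degrees of freedom that F and p imply. Levels per side assume equal weight of both groups: the average CPM times 2, shared out by the fold. They are derived values and carry no error. Depth per library is unknown, so no detection limit is given. Named genes were the members, every measured S100 and annexin gene, the 8 partners with the smallest p and those at an average log2 CPM of at least 7, the 6 neighbours with the smallest p, and CTNNB1. The values of 1 partner that this rule names are not reported here. Members and lists were chosen with earlier results of these data known. Calculations ran in Python 3.11.15 (numpy 2.4.6; pandas 2.3.3; scipy 1.17.1; figures in matplotlib 3.10.9) and were tested on simulated data.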

Additional observations from a re-analysis of the deposited data

How the results depend on the processing

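Among the members, 9 of 10 were called as deposited. That count was 9 centred on the spike-ins (1 higher, 8 lower), 8 with 4 denominator degrees of freedom and at an FDR under 0.01, and 7 when a 2-fold change was also required (1 higher, 6 lower); S100B higher and S100A4, S100A6, S100A10, S100A16, ANXA1 and ANXA2 lower held under all of these. S100A13 (0.57) lost its call at an FDR under 0.01, with 4 degrees of freedom and at 2-fold, and was at 0.002169 centred on the spike-ins; S100A11 (-0.95) fell short of 2-fold; ANXA6 gained a call centred on the spike-ins (-0.85). Adjusting over genes without spike-ins, or over rows with an average log2 CPM of at least 1, changed no member's call. Among the other S100 and annexin genes, 5 to 8 were called under these settings against 6 as deposited; among the partners, 18 to 26 against 26, with higher genes falling from 7 to 2 centred on the spike-ins or with 4 degrees of freedom. The 12 called neighbours became 5 with 4 degrees of freedom, 4 at 2-fold, 7 of 12 within 0.25 Mb and 25 of 46 within 1 Mb. No paired analysis was possible because the table holds no value per library; for the same reason leaving out replicates and DESeq2 were not run, and samples could not be searched for outliers. The cause of each change of call was not tested beyond the setting itself.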
